A study of Mus musculus with 64 samples.

Results

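Stem and myeloid progenitors (SMP) were compared between the spleen and the bone marrow of young wild-type mice, gene by gene, in 6 RNA-seq libraries of the 64 in the series. The members were chosen by their labels alone: 3 spleen SMP libraries and 3 bone marrow SMP libraries of unaffected mice, each from a different mouse. All 6 mice were +/+ mice of the CbyJ.Cby-Rasa3(scat)/Llp colony, a BALB-background stock that segregates the scat mutation of Rasa3. Their labels give no disease and no treatment. In each tissue replicate 1 was 28 days old, replicate 2 was 23 days old and replicate 3 was 25 days old. Libraries used only for comparison came from a 32-day wild-type spleen and a 32-day wild-type bone marrow, from SMP of scat/scat mice in anemic crisis (spleen and bone marrow of the same 3 mice, 23 to 28 days old), and from megakaryocyte-erythroid progenitors (MEP) of young wild-type spleen and bone marrow (3 mice, each giving both tissues). SMP were sorted by surface antigens: they carry Kit and CD34, lack Sca1 and the lineage markers of mature blood cells, and have little of the Fc receptors CD16 and CD32. The gate replaces a finer split, because BALB mice express little Sca1, so stem cells and common myeloid progenitors are mixed in it.

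Blood formation in adult mice is centred in the bone marrow, where stem cells give rise to myeloid, erythroid and lymphoid progenitors. The mouse spleen keeps a smaller pool of progenitors and is a site of red cell formation that expands under anemia. A progenitor sort collects cells that share a surface phenotype but not a single fate. In such bulk libraries more cells of a type and more RNA per cell cannot be told apart.

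In spleen SMP, red cell genes and some T-lineage and metallothionein genes were higher than in bone marrow SMP, and primary granule and mitosis genes were lower. Of 15572 genes tested, 886 passed limma's test at a Benjamini-Hochberg adjusted p under 0.05, which is 5.69% of them. Among these, 521 rose in spleen SMP (3.35%) and 365 fell (2.34%), and 223 rose and 82 fell by at least 2-fold. The median log2 difference over all tested genes was 0.001. Before adjustment 3743 genes had a p under 0.05. The tissues did not overlap in any of the 886 called genes, nor in 31.7% of all tested genes. A lack of overlap in a called gene thus adds nothing to its call. Values below are the authors' normalised counts after rescaling, and differences are spleen minus bone marrow in log2(count + 1), with the standard error (SE) from limma. Without rescaling, 93.9% of the calls were higher in spleen SMP, against 58.8% with it, and the median of all genes was 0.41. The number of calls moved with single libraries. It was 83 without spleen replicate 2, 74 without bone marrow replicate 1, 32 without bone marrow replicate 3 and 329 without bone marrow replicate 2, and 1471 without spleen replicate 1 and 1371 without spleen replicate 3. The 3 spleen mice gave no other library, so tissue and set of mice cannot be told apart.

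**Figure D1:**
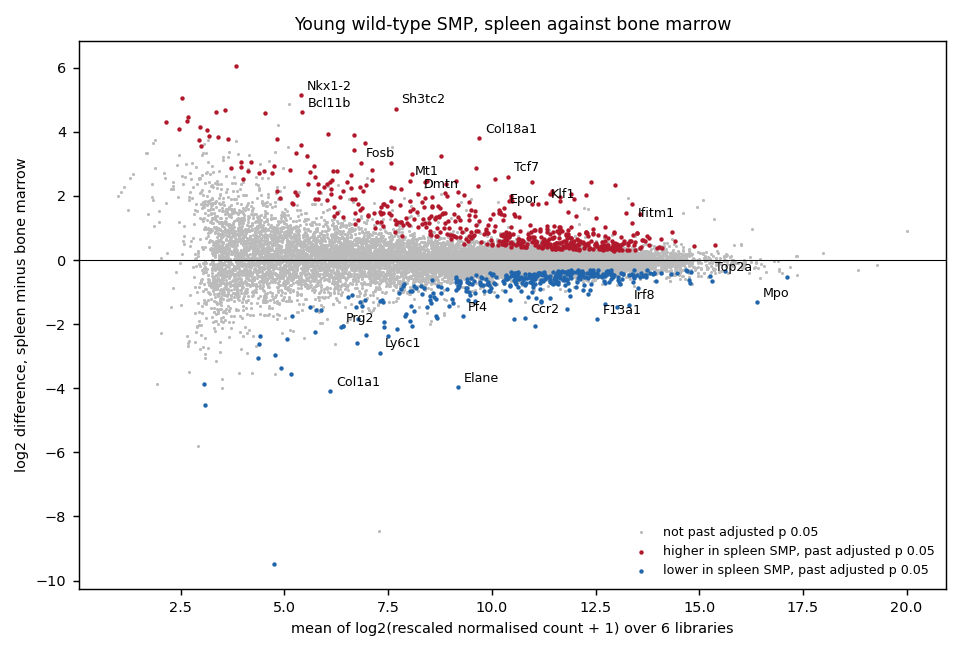
Log2 difference between spleen and bone marrow SMP of young wild-type mice (vertical axis) against the mean log2(rescaled normalised count + 1) over the 6 libraries (horizontal axis), 1 point per tested gene. The 521 genes higher in spleen SMP are red, the 365 lower genes are blue and genes not past adjusted p 0.05 are grey.

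Libraries held 49.3 to 68.3 M normalised counts in spleen SMP and 35.6 to 50.1 M in bone marrow SMP. From the steps between low values, depth was estimated at 25 to 54.6 M reads in spleen and 28.9 to 38.7 M in bone marrow libraries. Mitochondrial transcripts took 2.12 to 3.73% of spleen libraries and 3.04 to 3.39% of bone marrow libraries. Pairs of spleen libraries correlated at Pearson's r of 0.96 to 0.9735 over genes and pairs of bone marrow libraries at 0.98 to 0.9845, and pairs across tissues at 0.9549 to 0.9726. The spleen mice thus differed more among themselves than the bone marrow mice did. Globin transcripts were 0.67, 0.284 and 0.132% of the 3 spleen libraries, against 0.0711, 0.104 and 0.0872% of the bone marrow libraries. Igkc, an immunoglobulin light chain of mature B cells, had 752.4, 246.1 and 24.7 counts in spleen SMP and 57.3, 124.0 and 103.2 in bone marrow SMP. Spleen replicate 1 was the highest library in both. The B cell list as a whole summed to 18725 to 32859 counts in spleen libraries and 26629 to 39821 in bone marrow libraries. The part of mature blood cells in the results was not tested. Igkc, and the genes Cd3e, Trac and S100a8 further on, were chosen after their values were seen.

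The label was checked on the genes of the gate. Kit, the stem cell factor receptor, had 35636, 37364 and 41017 counts in spleen SMP and 35118, 30257 and 31771 in bone marrow SMP, a difference of 0.23 that did not pass (SE 0.09, adjusted p = 0.165, limma). Cd34, a progenitor sialomucin, had 29210, 23716 and 16706 counts in spleen and 40458, 34076 and 38486 in bone marrow (difference -0.73, SE 0.18, adjusted p = 0.0581, limma). Both gate genes were thus abundant in every library. The 2 tissues did not overlap in either, as in 31.7% of all tested genes. Fcgr2b, the inhibitory IgG receptor CD32, fell in spleen SMP, with 601, 376 and 539 counts there and 1054, 779 and 915 in bone marrow (difference -0.87, adjusted p = 0.0411, limma). Fcgr3, the activating receptor of the same pair, was at 46.8 to 104.1 counts in spleen and 109.6 to 150.6 in bone marrow (adjusted p = 0.222, limma). Ly6a, which encodes Sca1, stayed low at 32.2 to 185.8 counts in spleen and 37.4 to 72.7 in bone marrow. Of the 15 surface antigens on the gate list, Fcgr2b was the 1 gene called, against 5.69% of all tested genes. In 3 of the 15 all spleen libraries lay above all bone marrow libraries, against 15.7% of all tested genes. In 6 they all lay below, against 16%. Before adjustment 7 of the 15 had a p under 0.05 in limma, as did 3743 of all 15572 genes. Rasa3, the gene mutated in scat, had 11993, 12539 and 11053 counts in spleen and 12144, 11360 and 11752 in bone marrow, and the tissues overlapped (difference 0.01, SE 0.08, adjusted p = 0.943, limma).

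Promoter windows of 6 genes that changed are shown first, because they let the sequence be read beside the measurements. The first 3 are granulocyte-lineage genes lower in spleen SMP, with the ETS-factor core GGAAGT in capitals. The sequences are RefSeq's for GRCm38.p6, upstream of the annotated start, read 5′ to 3′ along the gene.
Elane, chr10:79886062-79886246, plus strand: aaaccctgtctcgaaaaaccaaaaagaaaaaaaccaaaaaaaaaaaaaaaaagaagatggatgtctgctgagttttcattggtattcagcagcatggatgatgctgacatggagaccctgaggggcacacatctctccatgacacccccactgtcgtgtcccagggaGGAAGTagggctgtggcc
Ctsg, chr14:56102575-56102824, minus strand: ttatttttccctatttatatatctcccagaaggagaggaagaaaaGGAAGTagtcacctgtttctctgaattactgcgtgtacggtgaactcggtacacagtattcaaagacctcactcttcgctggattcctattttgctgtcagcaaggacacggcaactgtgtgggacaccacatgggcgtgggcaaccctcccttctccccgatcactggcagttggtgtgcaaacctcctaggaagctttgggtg
Ms4a3, chr19:11640852-11641101, minus strand: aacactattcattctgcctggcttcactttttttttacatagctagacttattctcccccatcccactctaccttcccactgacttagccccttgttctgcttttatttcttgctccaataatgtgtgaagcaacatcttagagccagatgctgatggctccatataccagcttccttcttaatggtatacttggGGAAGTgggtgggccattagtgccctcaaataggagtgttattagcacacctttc
Each window holds 1 match. On either strand 19.7% of 32851 mouse promoter windows of 250 bases hold this core, and so do 11 of the 23 windows of the granule and monocyte list.
The metallothionein windows below have the metal response cores TGCACNC and TGCGCNC in capitals, and both genes were higher in spleen SMP.
Mt1, chr8:94178839-94179081, plus strand: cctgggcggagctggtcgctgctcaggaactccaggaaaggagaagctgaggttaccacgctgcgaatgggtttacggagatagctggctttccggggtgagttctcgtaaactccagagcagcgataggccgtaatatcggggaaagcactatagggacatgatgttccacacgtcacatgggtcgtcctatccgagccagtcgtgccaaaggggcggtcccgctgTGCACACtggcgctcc
Mt2, chr8:94172368-94172617, plus strand: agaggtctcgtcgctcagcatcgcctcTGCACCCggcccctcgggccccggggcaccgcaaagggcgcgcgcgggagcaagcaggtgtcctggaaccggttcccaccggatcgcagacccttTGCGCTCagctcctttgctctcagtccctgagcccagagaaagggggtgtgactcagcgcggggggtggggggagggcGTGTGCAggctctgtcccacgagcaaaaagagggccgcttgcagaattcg
Mt1 holds 1 match and Mt2 holds 3. One of the Mt2 matches, GTGTGCA, is on the opposite strand. Such a core is in 21.4% of all windows, 5.17% hold at least 2, and 5 of the 9 windows of the metallothionein and zinc list hold at least 1.
The erythropoietin receptor gene was also higher in spleen SMP, and its window has the GATA core AGATAA, here on the opposite strand, in capitals.
Epor, chr9:21963577-21963826, minus strand: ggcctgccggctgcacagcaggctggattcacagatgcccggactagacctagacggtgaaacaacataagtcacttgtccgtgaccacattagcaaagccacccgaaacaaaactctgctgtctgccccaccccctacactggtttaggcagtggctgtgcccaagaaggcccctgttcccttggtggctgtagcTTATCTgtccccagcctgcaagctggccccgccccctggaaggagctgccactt
The GATA core is in 9.99% of all windows, in 5 of the 22 windows of the red cell list and in 1 of the 13 windows of the heme synthesis list. A match is a description of the letters, not a site or a cause.

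Red cell genes rose in spleen SMP. Of 27 tested genes of the red cell membrane and late erythroid list, 21 rose in spleen SMP, against 3.35% of all tested genes, and none fell. The list's median difference was 1.62 against 0.001 over all genes. Dmtn, which encodes the membrane skeleton protein dematin, had 774, 588 and 508 counts in spleen SMP and 115, 200 and 133 in bone marrow SMP, a difference of 2.07 (SE 0.26, adjusted p = 0.00903, limma). The lowest spleen library lay well above the highest bone marrow library. Xk, the Kx blood group transporter-like protein, averaged 4171 ± 177 counts in spleen SMP and 2245 ± 63.3 in bone marrow SMP (SD, n = 3 each; difference 0.89, adjusted p = 0.00177, limma). Xk stayed past the threshold whichever of the 6 libraries was left out, with differences of 0.86 to 0.91. Car2, carbonic anhydrase 2, averaged 17944 ± 614 in spleen and 11181 ± 614 in bone marrow (difference 0.68, adjusted p = 0.00561, limma). The list's count fell to 5 without spleen replicate 2, to 4 without bone marrow replicate 1 and to 1 without bone marrow replicate 3, while its median stayed between 1.49 and 1.89 with any 1 library left out.

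Erythroid regulators rose with them. Of 16 erythroid transcription factor genes 8 rose, against 3.35% of all tested genes, and none fell, with a median of 0.51. The count was 1 without spleen replicate 2, 1 without bone marrow replicate 1, 4 without bone marrow replicate 2 and 0 without bone marrow replicate 3. Klf1, the erythroid Krüppel-like activator (GRCm38 chr8:84901928-84905291, plus strand), had 3479, 5090 and 5653 counts in spleen SMP and 1195, 1939 and 1097 in bone marrow SMP (difference 1.77, SE 0.24, adjusted p = 0.014, limma). Nfia, a factor that favours the erythroid over the granulocyte fate in human progenitors, had 1562, 2378 and 1857 counts in spleen and 646, 852 and 605 in bone marrow (difference 1.46, adjusted p = 0.00903, limma). Spleen and bone marrow libraries did not overlap in either factor, as in all 886 called genes and 31.7% of all tested genes. Smaller rises were measured for Gfi1b, a repressor needed for red cells and platelets (0.88, adjusted p = 0.0182, limma), and for Tal1, a partner of GATA1 (0.54, adjusted p = 0.0245). Epor, the erythropoietin receptor, had 1552, 2126 and 3200 counts in spleen SMP and 597, 1043 and 583 in bone marrow SMP (difference 1.62, SE 0.30, adjusted p = 0.0268, limma). Cish, a STAT5 target that dampens cytokine receptors, had 2332, 2424 and 2910 counts in spleen and 988, 1068 and 972 in bone marrow (difference 1.33, SE 0.11, adjusted p = 0.00176, limma). Cish stayed past the threshold with any 1 library left out.

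Heme synthesis genes moved the same way, 9 of 14 rising, against 3.35% of all tested genes, and none falling (median 0.53). The count was 2 without spleen replicate 2, 2 without bone marrow replicate 1, 6 without bone marrow replicate 2 and 0 without bone marrow replicate 3. Alad, whose enzyme makes porphobilinogen, averaged 10734 ± 1442 counts in spleen SMP and 5765 ± 374 in bone marrow SMP (difference 0.89, adjusted p = 0.00727, limma). Fech, ferrochelatase, averaged 4482 ± 588 in spleen and 2303 ± 272 in bone marrow (difference 0.96, adjusted p = 0.00903, limma), and Cpox and Urod rose by 0.93 and 0.55. In iron handling 3 of 19 genes rose. They were Slc40a1, the iron exporter ferroportin (1.53, adjusted p = 0.0247, limma), Steap3, the endosomal ferrireductase (0.81), and Tfr2, transferrin receptor 2 (0.80). The iron list median was -0.05, and 0 to 4 of its genes rose with 1 library left out. Globin genes gave another picture. Their list median was 1.77. Every spleen library lay above every bone marrow library in all 4, as in 15.7% of all tested genes. After adjustment 0 of 4 passed limma's test. Before it 4 had a p under 0.05, as did 3743 of all 15572 genes. Hba-a1 had 143963, 69453 and 30087 counts in spleen SMP and 14330, 22235 and 18739 in bone marrow SMP (adjusted p = 0.108, limma), with spleen replicate 1 far above replicate 3. Dmtn, Xk and Car2 were closer together among the spleen libraries. Hba-a1 and Hba-a2 are near-identical copies, and how reads were shared between them is not given.

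**Figure D2:**
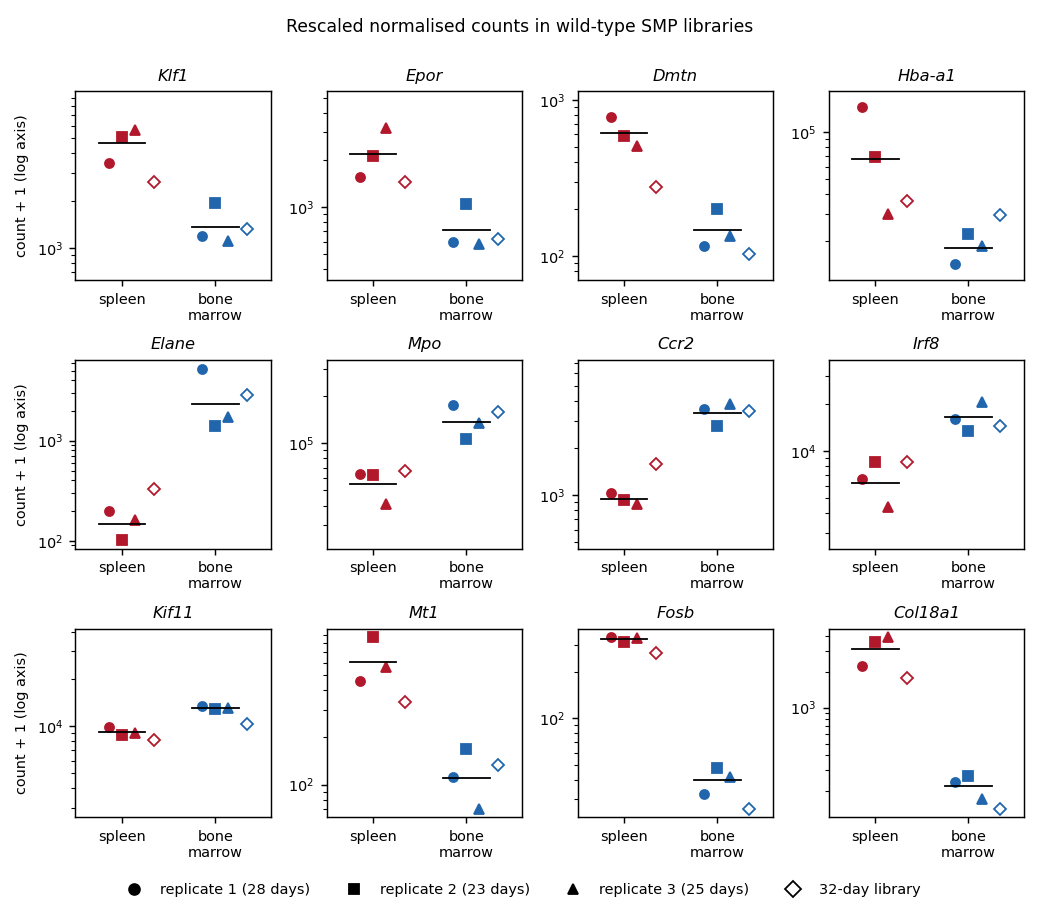
Rescaled normalised counts plus 1 on a log axis for 12 genes, spleen left and bone marrow right in each panel. Filled symbols are the 3 young libraries of each tissue with their mean log2 level as a bar, and open diamonds are the 32-day libraries. Klf1, Epor and Dmtn were higher in all 3 spleen libraries, Elane, Mpo, Ccr2 and Irf8 lower, and Hba-a1 was spread widely among spleen libraries.

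Granulocyte and monocyte priming genes fell. Of 24 tested genes of the primary granule and granulocyte-monocyte list, 13 fell in spleen SMP, against 2.34% of all tested genes. None rose, and the median was -1.11. Elane, neutrophil elastase, had 199, 101 and 160 counts in spleen SMP and 5242, 1387 and 1709 in bone marrow SMP, a difference of -3.96 (SE 0.49, adjusted p = 0.0113, limma). The highest spleen library thus held less than the lowest bone marrow library by a wide margin. Mpo, myeloperoxidase, chosen after its values were seen, was among the most abundant transcripts, with 63932, 62427 and 40969 counts in spleen and 176219, 106308 and 134273 in bone marrow (difference -1.31, adjusted p = 0.0207, limma). Ctsg, the granule protease cathepsin G, also chosen after its values were seen, averaged 1103 ± 440 in spleen and 4471 ± 1567 in bone marrow (difference -2.06, adjusted p = 0.0241). Ms4a3, a marker of granulocyte-monocyte progenitors, fell by 2.38 on the log2 scale (adjusted p = 0.0226, limma), and Hp, haptoglobin, fell by 2.07 (adjusted p = 0.0116). Clec12a, an inhibitory lectin of myeloid cells, averaged 814 ± 248 counts in spleen SMP and 2810 ± 65.2 in bone marrow SMP (difference -1.83, adjusted p = 0.00451, limma) and stayed past the threshold with any 1 library left out. The list's count was 5 without spleen replicate 2, 4 without bone marrow replicate 1 and 2 without bone marrow replicate 3, and its median stayed between -1.31 and -0.88.

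Genes of the monocyte branch were mixed. Of 24 monocyte and macrophage genes 2 rose, Apoe and Slc40a1, and 3 fell, with Ccr2 and Ly6c2 among them. The shares over all tested genes were 3.35% higher and 2.34% lower. The list median was 0.16, from -0.51 to 0.36 with 1 library left out. Irf8, the factor that directs progenitors to monocytes and dendritic cells, had 6560, 8440 and 4392 counts in spleen SMP and 16012, 13355 and 20484 in bone marrow SMP (difference -1.39, adjusted p = 0.0241, limma). Ccr2, the chemokine receptor that lets monocytes and their progenitors leave the marrow (GRCm38 chr9:124101950-124113557, plus strand), had 1030, 933 and 875 counts in spleen and 3530, 2775 and 3796 in bone marrow (difference -1.82, SE 0.13, adjusted p = 0.000992, limma). Ccr2 stayed past the threshold with any 1 library left out, at -1.96 to -1.73. F13a1, coagulation factor XIII A of monocytes and platelets, fell by 1.85 on the log2 scale (adjusted p = 0.0193, limma), and the log2 differences of Klf4 and Ly6c1 were -2.16 and -2.89. Ly6c2, the monocyte Ly6C antigen, fell by 2.59, but it closely resembles Ly6c1 and reads may be split between them. The C-type lectin genes Clec7a and Clec5a of myeloid cells fell by 2.33 and 2.23. Of 14 mature neutrophil genes 0 passed limma's test and 0 had an unadjusted p under 0.05 (median -0.33), and S100a8, a calprotectin subunit, was at 63.8 to 245.7 counts in spleen and 102.0 to 171.7 in bone marrow.

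Genes of other granulocytes and of platelets were mixed. On the basophil and eosinophil list 4 of 21 genes fell and 1 rose (median -0.64). Shares of all tested genes were 2.34% lower and 3.35% higher. Without spleen replicate 2, or without bone marrow replicate 1 or 3, 0 genes of this list fell. Prg2, eosinophil major basic protein, had 41.5, 25.7 and 53.5 counts in spleen SMP and 164.3, 187.1 and 155.6 in bone marrow SMP (difference -2.10, adjusted p = 0.0169, limma). Epx, eosinophil peroxidase, fell by 2.61 on the log2 scale (adjusted p = 0.0237), and Mcpt8, a basophil protease, by 2.07 (adjusted p = 0.0239). Ifitm1, the member that rose, encodes an interferon-induced membrane protein and had 14276, 18493 and 15867 counts in spleen and 7675, 7722 and 6171 in bone marrow (difference 1.17, adjusted p = 0.00462, limma). Among 26 megakaryocyte and platelet genes 3 fell and 1 rose, and 0 to 3 fell with 1 library left out. Pf4, platelet factor 4, averaged 363 ± 149 counts in spleen SMP and 1161 ± 163 in bone marrow SMP (difference -1.75, adjusted p = 0.0177, limma). Plek, pleckstrin, and Thbs1, thrombospondin 1, had differences of -0.71 and -0.997 (both adjusted p under 0.05, limma). F2r, the thrombin receptor PAR1, rose by 0.76 (SE 0.07, adjusted p = 0.00293, limma) and did so with any 1 library left out.

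**Figure D3:**
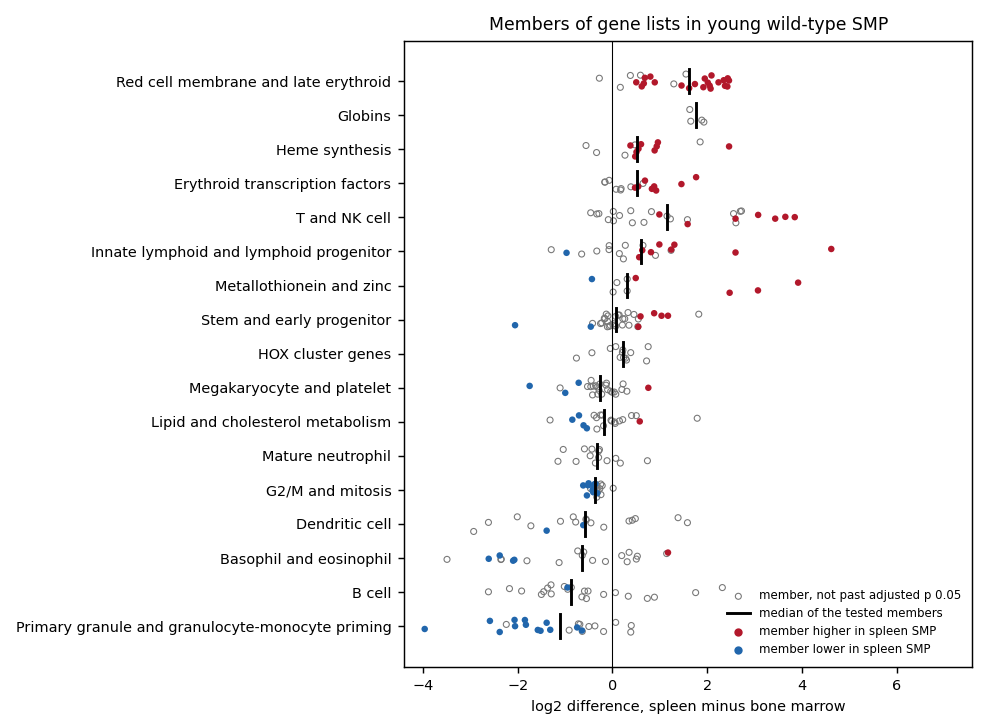
Log2 differences, spleen minus bone marrow SMP, of the tested members of gene lists, 1 point per gene. Red and blue points passed adjusted p 0.05, open points did not, and black bars mark list medians, from 1.77 for globins to -1.11 for primary granule and granulocyte-monocyte genes.

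T-lineage and innate lymphoid genes were among those that rose in spleen SMP. Of 25 T and NK cell genes 7 rose and none fell (median 1.15). Of 20 innate lymphoid and lymphoid progenitor genes 8 rose and 1 fell (median 0.60). Of all tested genes 3.35% rose and 2.34% fell. The lists share Tcf7 and Gata3. Tcf7, the TCF1 factor that starts the T-cell programme (GRCm38 chr11:52252371-52283014, minus strand), had 3076, 3751 and 3146 counts in spleen SMP and 372, 1019 and 430 in bone marrow SMP (difference 2.60, SE 0.34, adjusted p = 0.0135, limma). Bcl11b, which fixes T-cell commitment, had 202, 214 and 219 counts in spleen and 1.4, 34.2 and 6.5 in bone marrow (difference 4.62, SE 0.84, adjusted p = 0.0239, limma). The 3 spleen mice were nearly equal for both genes. Gata3, a factor of T and innate lymphoid cells, averaged 576 ± 35.8 in spleen SMP and 290 ± 24.3 in bone marrow SMP (difference 0.99, adjusted p = 0.0145, limma). Ccr9, a chemokine receptor of thymus-seeding progenitors, averaged 1118 ± 349 in spleen and 459 ± 71.3 in bone marrow (difference 1.24, adjusted p = 0.026, limma).

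Constant regions of T-cell receptors were high alongside. Trbc1, of the beta chain, had 347, 474 and 504 counts in spleen SMP and 19.8, 115 and 16.5 in bone marrow SMP (difference 3.65, adjusted p = 0.0247, limma). Trbc2 rose by 1.59, and the gamma-chain regions Tcrg-C1 and Tcrg-C4 by 3.91 and 4.59, though reads could be split within each pair of like copies. Gzmb, granzyme B, had 322, 368 and 326 counts in spleen and 79.0, 20.4 and 17.0 in bone marrow (difference 3.44, adjusted p = 0.0149, limma). Cd3e and Trac, chosen after their values were seen, had other values. Both are on the T and NK cell list, where 7 of 25 genes rose, Trbc2 among them, and none fell. The part of mature T cells in these values was not tested. Cd3e, a chain of the surface T-cell receptor complex, had 130.9, 7.8 and 0 counts in spleen SMP and 1.5, 0 and 1.3 in bone marrow SMP (adjusted p = 0.38, limma). Trac, the alpha-chain constant region, had 61.5, 19.97 and 0 counts in spleen and 0, 3.6 and 0 in bone marrow (adjusted p = 0.326). In spleen replicate 3 Cd3e and Trac were at 0, Tcf7 was at 3146, Bcl11b at 219 and Trbc1 at 504 counts. Rag2, of the antigen receptor recombinase, was the innate and lymphoid list gene that fell, by 0.97 on the log2 scale (adjusted p = 0.0491, limma). Among 23 B cell genes Rag2 was also the 1 gene called. Without spleen replicate 2, or without bone marrow replicate 3, 0 genes of either lymphoid list were called. Without bone marrow replicate 1, 2 T and NK cell genes and 1 innate lymphoid gene were called.

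**Figure D4:**
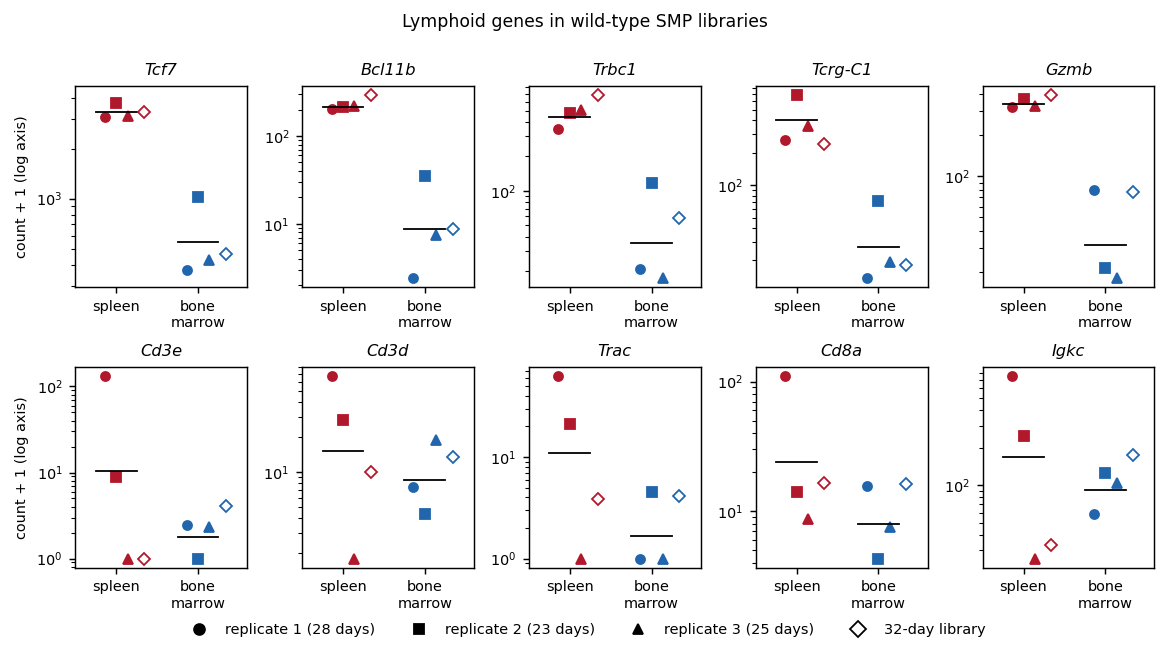
Rescaled normalised counts plus 1 on a log axis, spleen left and bone marrow right, for T-lineage genes and a granzyme (top) and genes of mature T or B cells (bottom). Tcf7, Bcl11b, Trbc1, Tcrg-C1 and Gzmb were high in all spleen libraries, while Cd3e, Trac and Igkc were high in spleen replicate 1 and low in spleen replicate 3.

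Mitosis genes were slightly and evenly lower in spleen SMP. Of 24 G2/M genes 12 fell, against 2.34% of all tested genes, and none rose, with a median of -0.37. In 21 of the 24 all spleen libraries lay below all bone marrow libraries, against 16% of all tested genes. Kif11, the kinesin that separates spindle poles (GRCm38 chr19:37376403-37421859, plus strand), had 9859, 8719 and 8977 counts in spleen SMP and 13495, 12757 and 13108 in bone marrow SMP (difference -0.52, SE 0.08, adjusted p = 0.014, limma). Top2a, topoisomerase II alpha, had 35568, 29832 and 33458 counts in spleen and 47181, 44512 and 48297 in bone marrow (difference -0.51, adjusted p = 0.0217, limma). Nusap1 and Tpx2, which organise spindle microtubules, fell by 0.54 and 0.41. These differences are relative to the median gene: without rescaling, which moved the median of all genes to 0.41, the list's median was 0.04 and 0 members were called. The count was also 0 without spleen replicate 2, without bone marrow replicate 1 and without bone marrow replicate 3. Of 24 DNA replication genes 1 rose, Ccne1, cyclin E1 (0.56, adjusted p = 0.0497, limma), and the list median was -0.07.

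Metal, stress and signalling genes rose in smaller groups. Mt1, a zinc and copper binding metallothionein, had 460, 870 and 565 counts in spleen SMP and 111, 168 and 69.2 in bone marrow SMP (difference 2.47, adjusted p = 0.0135, limma). Its neighbour Mt2 had 142, 437 and 271 counts in spleen and 10.2, 48.8 and 7.8 in bone marrow (difference 3.92, adjusted p = 0.0217, limma). Of 9 genes on the metallothionein and zinc list 4 rose, with Mtf1, the metal-sensing factor, at 0.49. On the same list 1 fell, the zinc importer Slc39a10 at -0.43. Over all tested genes 3.35% were called higher and 2.34% lower. The list median was 0.31, and 0.02 in the 32-day pair. In limma 0 members were called without spleen replicate 2, without bone marrow replicate 1 or 3, or with young and older wild type together, and 2 rose without spleen replicate 1 or bone marrow replicate 2. Fosb, an immediate early AP-1 gene, had 336, 312 and 333 counts in spleen SMP and 31.3, 46.6 and 40.5 in bone marrow SMP (difference 3.04, SE 0.26, adjusted p = 0.00177, limma). Fosb kept its call with any 1 library left out. Of 26 immediate early and handling stress genes 3 rose, Fosb, Nr4a1 (1.27) and Junb (0.47), and Klf4 fell. Egr1 was at 1225, 1845 and 4347 counts in spleen and 735, 758 and 397 in bone marrow, a wide spread that did not pass (adjusted p = 0.0695, limma).

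Hes1, a Notch-responsive repressor chosen after its values were seen, had 917, 1382 and 1911 counts in spleen SMP and 155, 184 and 99.3 in bone marrow SMP (difference 3.24, SE 0.31, adjusted p = 0.00293, limma). Of 19 TGF-beta response genes 4 rose and 1 fell, beside 3.35% and 2.34% of all tested genes. With 1 library left out 0 to 4 rose and 0 fell. Ltbp1, which holds latent TGF-beta in the matrix, averaged 2796 ± 846 in spleen and 751 ± 69.4 in bone marrow (difference 1.85, adjusted p = 0.00819, limma), and Tgfbr3, betaglycan, rose by 0.86. Of 21 lipid and cholesterol genes 4 fell, among them Insig1, the sterol-sensing brake on cholesterol synthesis (-0.85, adjusted p = 0.00727, limma) and Idi1, an isoprenoid synthesis enzyme (-0.71). Apoe, apolipoprotein E, was the 1 member that rose (0.58, adjusted p = 0.0192, limma). On this list 0 to 3 genes fell and 0 to 2 rose with 1 library left out. In glycolysis and hypoxia 3 of 24 rose, the glucose transporter Slc2a3 (0.47), hexokinase Hk1 (0.58) and Hif3a (1.44), and 1 fell, Pgam1 (-0.66). These counts were 0 to 3 and 0 to 5 with 1 library left out.

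Several of the sharpest single rises were in genes of no list. Sh3tc2, an endosomal adaptor known for its role in nerve myelin, had 744, 1367 and 1158 counts in spleen SMP and 40.1, 58.8 and 24.8 in bone marrow SMP (difference 4.73, SE 0.35, adjusted p = 0.000992, limma). Col18a1, a basement membrane collagen that carries endostatin, had 2231, 3518 and 3875 counts in spleen and 236, 268 and 171 in bone marrow (difference 3.81, SE 0.24, adjusted p = 0.000538, limma). The tissues stood far apart in both genes, and each kept its call with any 1 library left out. Nkx1-2, a homeobox gene, averaged 288 ± 196 in spleen and 8.0 ± 6.0 in bone marrow (difference 5.14, adjusted p = 0.0133, limma). Ntn4, a netrin, Apol11b, an apolipoprotein L gene, and Mpzl2, a cell adhesion gene, rose by 3.78, 3.35 and 3.59. Scin, the actin-severing scinderin, chosen after its values were seen, rose by 2.87 (adjusted p = 0.00177, limma).

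Other sharp falls included Col1a1, the alpha-1 chain of type I collagen, with 9.98, 13.89 and 27.77 counts in spleen SMP and 363, 105 and 597 in bone marrow SMP (difference -4.08, adjusted p = 0.0169, limma). Postn, the matrix protein periostin, averaged 1444 ± 310 in spleen and 2847 ± 144 in bone marrow (difference -1.003, adjusted p = 0.0153, limma). These were the 2 genes called of 15 on the stroma and endothelium list. Col1a2, the alpha-2 chain of the same collagen, chosen after its values were seen, was not called. It had 212, 368 and 863 counts in spleen SMP and 497, 280 and 605 in bone marrow SMP (difference -0.11, adjusted p = 0.922, limma). Havcr1, the TIM-1 receptor, fell by 3.35 on the log2 scale (adjusted p = 0.0151). Of 33 stem and early progenitor genes 6 rose and 2 fell (median 0.07). Among the 6 were Mycn, a MYC family factor, at 1.04 (adjusted p = 0.014, limma) and Tek, the angiopoietin receptor, at 0.59 (adjusted p = 0.0207). Calls over all tested genes were 3.35% higher and 2.34% lower. Of 13 HOX genes, 21 p53 response genes, 17 MHC class I genes and 10 MHC class II genes none passed limma's test, and 1, 6, 0 and 0 had an unadjusted p under 0.05. Among 29 Ras and Rap regulators 2 rose and 2 fell: Nf1, a Ras GTPase-activating protein, rose by 0.54, Rapgef3, a cAMP-driven Rap activator, by 0.82, and Rap1b and Rasa4 fell by 0.75 and 0.53.

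The remaining lists are given with their counts of calls, beside 3.35% higher and 2.34% lower over all tested genes. Of 21 inflammatory and NF-kB genes 1 rose, Nfkb2, an NF-kB subunit, with 2515, 2347 and 2468 counts in spleen SMP and 1573, 1260 and 1663 in bone marrow SMP (difference 0.71, adjusted p = 0.0178, limma). Of 15 ERK feedback genes 2 rose, Spred2, an inhibitor of Ras signalling (0.38), and Phlda1 (1.34). Of 16 erythropoietin and STAT5 genes 3 rose, Epor, Cish and Podxl, a CD34-related sialomucin that had 847, 962 and 755 counts in spleen and 347, 488 and 446 in bone marrow (difference 1.01, adjusted p = 0.0192, limma). Epor was also the 1 gene called of 19 on the BMP, hedgehog and stress erythropoiesis list. Among 38 niche and homing genes 3 rose, Epor, Ccr9 and the tetraspanin Cd82 (0.62), and 3 fell, Ccr2 among them. Of 31 interferon genes 1 rose, the exonuclease Isg20 (0.77). Rara, a retinoic acid receptor, rose by 0.60 and Dhrs3, a retinal reductase, fell by 0.95 on the log2 scale, the 2 calls among 11 retinoic acid genes. Of 18 dendritic cell genes 2 fell, Irf8 and Runx2 (-0.62). Of 15 mast cell genes 2 rose, Gzmb and Il1rl1, the IL-33 receptor (0.81), and 2 fell, Mcpt8 and Fcer1g, the Fc receptor gamma chain (-1.04). None of 20 quiescence genes or 6 sex-linked genes passed limma's test, and 1 of each list had an unadjusted p under 0.05.

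The 32-day mice, 1 spleen and 1 bone marrow library outside the test, gave the same direction for most called genes. Of the 521 genes higher in young spleen SMP 482 were also higher at 32 days (92.5%, against 50.6% of all genes), and of the 365 lower genes 339 were lower (92.9%, against 49.2%). With 1 mouse per tissue there is no test. The 32-day counts were rescaled together with the young libraries, so they are not exactly on the scale of the young counts above. The 32-day spleen mouse gave no other library, so tissue and mouse cannot be told apart in this pair either. Tcf7 had 3303 counts in the 32-day spleen and 464 in the 32-day bone marrow, Elane 329 and 2840, and Sh3tc2 667 and 51.4. The Elane value in the 32-day spleen was above the 199, 101 and 160 counts of the young spleen libraries, which are on their own scale. Erythroid differences were smaller at 32 days, with a red cell list median of 0.73 and a globin median of 0.26, and Klf1 had 2645 counts in spleen and 1324 in bone marrow. Some differences were missing at 32 days. Col1a1 had 26.4 counts in spleen and 23.4 in bone marrow, Mpzl2 20.1 and 15.6, and Ifitm1 9985 and 9388.

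Crisis SMP, from scat/scat mice and with no library in common, were set beside these values. Crisis counts were rescaled over 12 libraries and are not on the scale of the counts above. Of the genes higher in wild-type spleen SMP 404 of 518 were higher in crisis spleen SMP than in crisis bone marrow SMP (78%, against 50.1% of all genes), and of the lower genes 265 of 365 were lower (72.6%, against 49.8%). The test of the difference between crisis and wild type called 0 of 15389 genes (0%, limma with the mouse as a random block), with 4184 at an unadjusted p under 0.05. Single crisis libraries moved that count, which was 68 without crisis spleen replicate 2. Without crisis spleen replicate 1, 3042 genes were called, 1461 with a higher and 1581 with a lower spleen minus bone marrow difference in crisis. Tcf7 had 1141, 123.7 and 438.3 counts in crisis spleen SMP and 1534, 443.2 and 364.7 in crisis bone marrow SMP, and the tissues overlapped. The Tcf7 difference in crisis minus that in wild type was -3.26 (SE 0.85, adjusted p = 0.104, limma). It was -3.88 without crisis spleen replicate 1 (adjusted p = 0.0174, limma), in the fit that called 3042 genes. Other lymphoid genes named above that rose in wild type were not alike in crisis. Their log2 differences there were 1.49 for Gzmb, 1.38 for Tcrg-C1 and 0.19 for Trbc1. Lower values were -0.16 for Tcrg-C4, -0.27 for Trbc2, -0.34 for Bcl11b, -0.60 for Gata3 and -1.10 for Ccr9. Fosb had 227.2, 30.6 and 11 counts in crisis spleen and 59.4, 32.7 and 26.7 in crisis bone marrow. Elane had 54.2, 154.4 and 116.5 counts in crisis spleen and 2866, 2706 and 889.4 in crisis bone marrow, with no overlap, as in wild type. Sh3tc2 had 929.9, 3656 and 2319 counts in crisis spleen and 94.4, 52.9 and 82.7 in crisis bone marrow.

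MEP, which give rise to red cells and platelets, were the other sorted progenitor. Their counts were also rescaled over 12 libraries. On that scale Klf1 in spleen SMP was at 2885, 4172 and 4446 counts. The bone marrow SMP libraries came from the same 3 mice as the MEP libraries, and the spleen SMP libraries did not. The difference between tissues itself differed between SMP and MEP in 228 of 15092 genes (1.51%, limma with the mouse as a random block), 99 of them with a higher (0.656%) and 129 with a lower value (0.855%) in SMP. Of the 886 genes called in SMP 879 were tested here and 175 were called. Klf1 had 23550, 23270 and 25980 counts in spleen MEP and 22910, 22340 and 18520 in bone marrow MEP (SMP difference minus MEP difference 1.54, adjusted p = 0.0369, limma). Tcf7 had 196.1, 373.5 and 469.5 counts in spleen MEP and 591.3, 420.2 and 978.5 in bone marrow MEP (3.51, adjusted p = 0.0348). Kif11 had 17720, 18070 and 17400 counts in spleen MEP and 16840, 17320 and 14950 in bone marrow MEP (-0.66, adjusted p = 0.0182). Of 24 mitosis genes 9 passed this test with a lower value in SMP, and of 27 red cell genes 4 passed with a higher one. Elane had 3.1, 4.9 and 312.0 counts in spleen MEP and 528.7, 453.8 and 240.9 in bone marrow MEP, and 0 of 24 granule and monocyte genes differed from SMP by this test. Spleen MEP replicate 3 stood apart from the other spleen MEP in Elane and in Mpo, which had 93.5, 142.3 and 2798 counts in spleen MEP and 5155, 2492 and 5806 in bone marrow MEP. The count moved with single libraries. It was 642 without that library, 601 without spleen SMP replicate 1, 52 without spleen SMP replicate 2, 19 and 67 without bone marrow SMP replicates 1 and 3, 20 and 66 without spleen MEP replicates 1 and 2, and 15 and 43 without bone marrow MEP replicates 1 and 3.

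**Figure D5:**
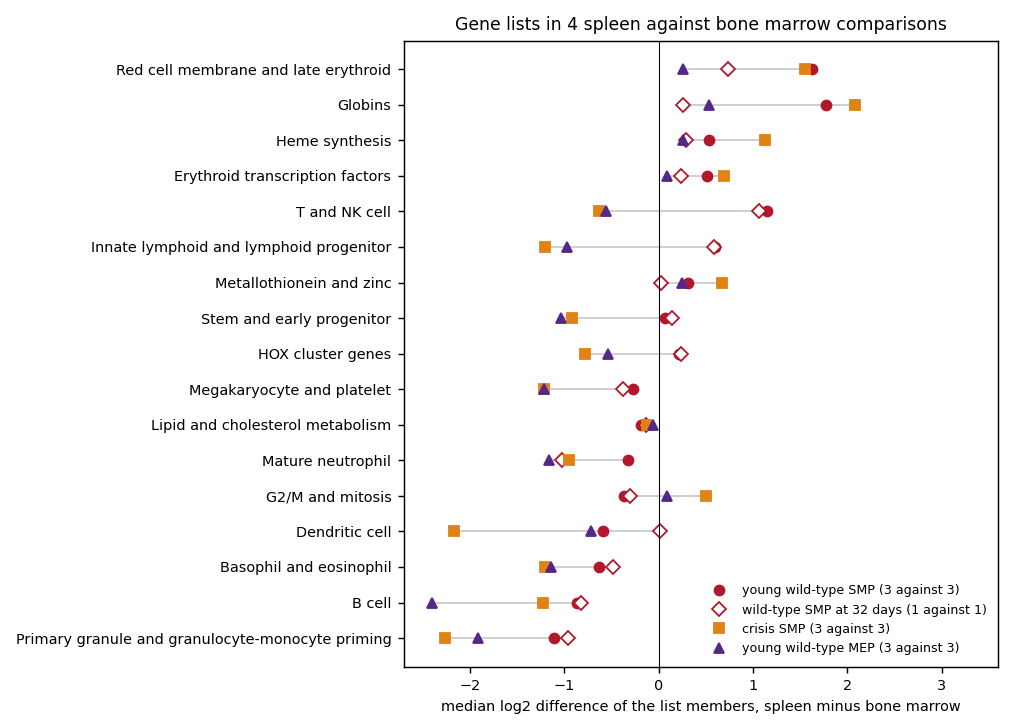
Median log2 difference, spleen minus bone marrow, of the tested members of gene lists in young wild-type SMP (filled circles), 32-day wild-type SMP (open diamonds, 1 mouse per tissue), crisis SMP (squares) and young wild-type MEP (triangles). The T and NK cell median was 1.15 in young and 1.06 in 32-day wild-type SMP and -0.63 in crisis SMP, and the red cell median was 1.62 in young wild-type SMP and 0.26 in MEP.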

How the data were processed

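Sorted SMP of spleen and bone marrow were sequenced as mRNA libraries (KAPA mRNA HyperPrep Kit, per the labels' protocols). Bowtie2 2.2.0, RSEM, DESeq2 and the build GRCm38 are named in the submitters' processing notes; their order and the use of strand are not given in the sources used here. The authors deposited normalised counts for 26286 genes, a normalised signal that is not in whole reads. A second table that the authors deposited has regularised log2 values for 25287 genes and served as an alternative. Symbols of GENCODE M21 matched 25607 identifiers.

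Because the deposited columns differ in scale, each of the 6 was divided by a median-ratio size factor (0.704 to 1.28). Genes averaging under 10 were dropped. On log2(count + 1), limma 3.58.1 (R 4.3.3) compared the tissues with trended, robust empirical Bayes, two-sided, with Benjamini-Hochberg adjustment over all tested genes and a threshold of 0.05. With 3 mice against 3 an exact permutation test cannot go below 0.1. Interaction tests had 12 libraries and the mouse as a random block (correlation 0.312 with crisis, 0.228 with MEP). Ages recur in both tissues, but the mice differ and deviations of same-age libraries correlated at -0.003, 0.052 and 0.019, so they were not treated as pairs. That the libraries come from separate mice is per the labels.

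Named genes are Rasa3, the gate genes, the 12 highest and 12 lowest log2 differences among called genes whose tissues do not overlap and with a mean of at least 100 in the higher tissue (predicted genes and pseudogenes left out), and up to 4 members of each of 39 lists by adjusted p; others are marked where named. Some genes that the rule names are not reported here. The libraries, lists and comparisons were chosen with earlier results of these data known. Of 775 list entries, 763 were in the table. Alternatives were other pseudocounts, filters, scalings and fits, the regularised table, older mice, an age block and leaving out each library.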

Additional observations from a re-analysis of the deposited data

Results flagged for a closer look

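The difference between spleen and bone marrow itself differed between SMP and MEP of young wild-type mice in 228 genes, by limma's interaction test with the mouse as a random block. Among 126 of the named genes 124 were tested and 26 passed, 20 with a higher and 6 with a lower value in SMP. Over all 15092 genes tested 1.51% passed; most named genes were chosen by their difference in the same SMP libraries, so nothing is read from their count. The values below are the SMP difference minus the MEP difference in log2.

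In red cell and heme genes these were 1.54 for Klf1, 1.23 for Nfia, 1.69 for Dmtn, 0.55 for Xk and 0.60 for Alad. In lymphoid genes they were 3.51 for Tcf7, 4.48 for Bcl11b, 4.17 for Trbc1, 5.38 for Tcrg-C4 and 2.11 for Ccr9. Mitosis genes had lower values in SMP, -0.66 for Kif11, -0.61 for Nusap1, -0.55 for Tpx2 and -0.60 for Top2a. Genes of signalling and transport stood at 3.26 for Fosb, 3.17 for Hes1, 2.09 for Mt1, 1.68 for Ltbp1, 1.10 for Tgfbr3, 1.09 for Apoe and 0.43 for Slc2a3. The remaining values were 3.92 for Sh3tc2, 2.82 for Ntn4, 2.33 for Scin, -0.87 for Idi1 and -4.47 for Col1a1.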

How the results depend on the processing

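The count of 886 was 915 and 866 with pseudocounts of 8 and 0.5, 771 with no filter, 912 with a mean of at least 100, 906 with upper quartile scaling, 716 with equal totals and 818 in the regularised table. It was 71 with all SMP libraries and a mouse block, 1722 with young and older wild type together and 44 without trend or robust fitting, and 32 to 1471 with 1 library left out; the cause was not tested. With the age as a replicate block it was 769, of which 656 were shared. Without rescaling 1188 were called, 1115 higher and 73 lower (93.9% higher, against 58.8%). The crisis count was 0 in the other settings and 0 to 3042 with 1 library left out. The MEP count was 97 with no filter, 37 without rescaling, 76 without a mouse block and 15 to 642 with 1 library left out. Of 105 called named genes 104 kept their direction in every setting and 12 were called with any 1 library left out. Tpx2, which did not keep its direction, was 0.003 without rescaling. The tissues did not overlap in any of the 886 called genes, so leaving out 1 library could hardly turn a direction. Nothing is read from the 104. Among genes not called, Rasa3 was -0.017 with equal totals. With 1 library left out it ranged from -0.029 to 0.064, Ly6a from -0.541 to 0.706, Cd3d from -0.245 to 2.351 and Igkc from -0.195 to 2.243. Others that reversed were Il7r (0.077), Cd48 (0.004) and S100a8 (0.044) without rescaling, and Il7r (0.057) and Igkc (-0.505) with older mice added.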

Other observations

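Gm26735, a predicted gene chosen after its values were seen, was listed at 0 in all 3 young spleen SMP libraries and had 344.0, 1151.5 and 900.9 counts in bone marrow SMP. The 32-day spleen library held 273.5 counts and the 32-day bone marrow library 1009.7, so the gene was not at 0 in every wild-type spleen.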
